A study of Mus musculus with 20 samples.

Results

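Cxcl12, Cxcl16, Cx3cl1 and Ccl25 are 4 chemokine genes that stromal cells can express, and their transcripts were followed in cultured murine cancer-associated fibroblasts (CAFs). The genes were chosen by name, with earlier results of these data known, and each had 1 row among the 32285 genes of the table. All 4 reached 1 TPM or more, the length-scaled share of transcripts in a library, in 5 or more libraries, the limit that left 12350 genes for testing. The labels describe the cells as an immortalized line of primary CAFs and do not say how many donors or clones it holds. RNA came from 20 libraries in 4 groups of 5, all kept for 32 h. The first group had 0.2 mM glutamine with 25 uM EIPA, an amiloride analogue that blocks sodium-proton exchangers and is widely used to inhibit macropinocytosis. The second had 0.2 mM glutamine with the DMSO vehicle, the third 4 mM glutamine with DMSO and IL-1a at 25 pg/mL, and the fourth 4 mM glutamine with DMSO. IL-1a is an inflammatory cytokine that acts on fibroblasts through NF-kB. By the treatment protocol every group, the EIPA group included, received DMSO. The 0.2 mM vehicle libraries served both the EIPA and the glutamine comparison, and the 4 mM vehicle libraries both the IL-1a and the glutamine comparison. The EIPA dose is the one in the sample titles. The treatment protocol gives the same figure in mM.

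Chemokines are small secreted or membrane-bound proteins that steer cells carrying matching receptors. Cxcl12 is secreted, binds heparan sulphate on cells and matrix, signals through Cxcr4 and is scavenged by Ackr3. It is a long-known product of fibroblasts and bone marrow stroma. Cxcl16 and Cx3cl1 are made as transmembrane proteins whose chemokine domain stands on a mucin-like stalk. The metalloproteases Adam10 and Adam17 cut the stalk and release a soluble form. Cxcl16 attracts cells with Cxcr6 and also takes up oxidised lipoprotein, whereas Cx3cl1, or fractalkine, binds Cx3cr1. Ccl25 is best known from the thymus and the small intestine, where it attracts cells with Ccr9, and it is scavenged by Ackr4.

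The 4 genes belong to 3 chemokine classes, which are defined by the spacing of the first cysteines of the mature protein. The coding sequence around these cysteines is shown because it sets the classes apart. It comes from the GENCODE M21 transcripts of GRCm38 (mm10), read 5′ to 3′ on the coding strand, and capitals mark the cysteine codons.
Cxcl12: agctaccgaTGCcccTGCcggttcttc
Cxcl16: gctggaagtTGTtctTGTgatcgtacc
Cx3cl1: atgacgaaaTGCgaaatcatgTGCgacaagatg
Ccl25: tttgaagacTGCTGCctgggttac
The stretches lie at chr6:117171499-117171525 on the plus strand for Cxcl12, chr11:70459118-70459144 on the minus strand for Cxcl16, chr8:94778042-94778074 on the plus strand for Cx3cl1 and chr8:4353888-4353911 on the plus strand for Ccl25, each within 1 coding exon. A single codon separates the cysteines in Cxcl12 and Cxcl16 (the CXC class), 3 codons separate them in Cx3cl1 (CX3C), and none does in Ccl25 (CC). The coding sequences shown were 119 codons long for Cxcl12, 246 for Cxcl16, 395 for Cx3cl1 and 144 for Ccl25. The longer reading frames of Cxcl16 and Cx3cl1 hold the stalk and the membrane anchor.

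Between 11749 and 12045 genes reached 1 TPM per library. Every library sums to the same TPM total, so the depth is unknown and no counting interval can be given. The first principal component of log2(TPM + 1) held 70% of the variance. The third held 4.07%, and on it 3 libraries at 4 mM glutamine stood apart (replicates 1 and 5 with IL-1a, replicate 5 with vehicle), with scores of -18.8, -17.3 and -17.2 against 2.3 to 13.1 in the other 7 libraries of those groups. In them Ccn1, a target gene of YAP, measured 201, 235 and 231 TPM, and 379 to 599 TPM in those other 7. Leaving these 3 out ended no call on the 4 chemokines. Of 10 fibroblast markers 8 averaged at least 1 TPM, while Lum and Fap reached at most 0.42 and 0.31 TPM in any library. All 5 mesothelial markers were expressed, with sums of 179 to 971 TPM. Genes of a treatment list, chosen with earlier results of these data known, are described here and are no independent check. Insig1 and Hmgcs1, of sterol control and sterol synthesis, rose with EIPA by 3.97 ± 0.10 and 2.71 ± 0.13 on the log2 scale. Both fell at 0.2 mM against 4 mM glutamine in vehicle (-2.01 and -2.22 relative to the median gene). Chac1, a gene of the amino acid stress response, also rose with EIPA (0.73 ± 0.17). At 0.2 mM against 4 mM glutamine it rose as well, by 0.74 relative to the median gene. Asns and Trib3, of the same response, were not called with EIPA and rose at 0.2 mM against 4 mM glutamine by 1.33 and 1.78 relative to the median gene. Nfkbia, the NF-kB inhibitor, rose with IL-1a by 0.51 ± 0.08, as did the acute-phase gene Saa3 (3.34 ± 0.40) and the neutrophil chemokine Cxcl1 (2.77 ± 0.18).

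The 4 transcripts differed widely in level, and no comparison called all 4. Cxcl12 averaged 975 TPM over the 20 libraries and ranked 144th among all genes. Ccl25 averaged 20.9 TPM, Cxcl16 13.4 TPM and Cx3cl1 1.59 TPM. TPM is scaled to transcript length, so these levels can be set beside each other. Cxcl16 had its highest values with EIPA, Ccl25 its highest at 0.2 mM glutamine in both groups, and Cxcl12 its highest at 4 mM glutamine, while the Cx3cl1 ranges of all 4 groups overlapped.

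**Figure D1:**
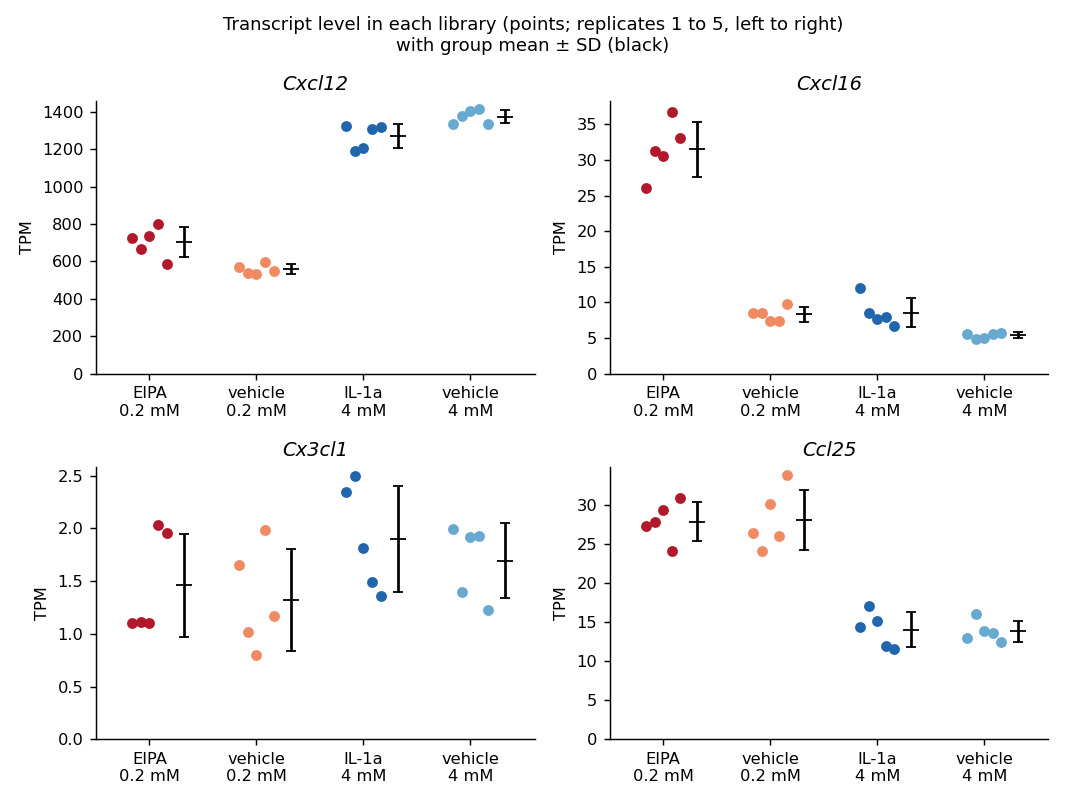
TPM (vertical axes, each starting at 0) of each gene in every library, by group (horizontal axes; points are replicates 1 to 5, black bars the group mean ± SD, n = 5). Cxcl16 stands out in the EIPA libraries at 26.1 to 36.7 TPM, Ccl25 is above 24 TPM in all 0.2 mM libraries and at most 17.1 TPM in all 4 mM libraries, and Cxcl12 is at 1191 TPM or more in the 4 mM libraries and at most 801 TPM in the others.

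Cxcl12 (ENSMUSG00000061353, chr6:117168535-117181367, plus strand, no overlapping gene) was the most abundant chemokine transcript in every group. Replicates 1 to 5 measured 724, 664, 735, 801 and 586 TPM with EIPA and 569, 538, 530, 596 and 551 TPM with vehicle at 0.2 mM glutamine. At 4 mM glutamine they measured 1323, 1191, 1207, 1305 and 1317 TPM with IL-1a and 1337, 1379, 1402, 1414 and 1337 TPM with vehicle. Every library at 0.2 mM was thus below every library at 4 mM. With EIPA 4 of 5 libraries exceeded all 0.2 mM vehicle libraries and replicate 5 fell among them. All 5 IL-1a libraries were lower than the lowest 4 mM vehicle library. From low to high the order was 0.2 mM vehicle, EIPA, IL-1a and 4 mM vehicle, and the ranges of the lowest 2 groups overlap. The annotation lists 4 transcripts, 3 of them protein coding, which the gene-level TPM does not tell apart.

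Cxcl16 (ENSMUSG00000018920, chr11:70453983-70459984, minus strand) was the gene with the clearest EIPA difference. Its 5 EIPA libraries measured 26.1, 31.2, 30.5, 36.7 and 33.1 TPM, against 8.55, 8.56, 7.32, 7.41 and 9.78 TPM with vehicle at 0.2 mM glutamine. At 4 mM glutamine it measured 12.0, 8.49, 7.69, 7.90 and 6.69 TPM with IL-1a and 5.61, 4.83, 5.03, 5.62 and 5.75 TPM with vehicle. The EIPA libraries stood clear of all 15 others, the IL-1a and 0.2 mM vehicle ranges overlapped, and the 4 mM vehicle libraries were lower than every other library. IL-1a replicate 1, one of the libraries that stood apart, was the highest of its group.

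Ccl25 (ENSMUSG00000023235, chr8:4325210-4360020, plus strand) divided the libraries by glutamine alone. It measured 27.2, 27.7, 29.4, 24.1 and 30.8 TPM with EIPA and 26.4, 24.0, 30.1, 26.0 and 33.7 TPM with vehicle at 0.2 mM. At 4 mM the values were 14.4, 17.1, 15.1, 12.0 and 11.6 TPM with IL-1a and 13.0, 16.1, 13.8, 13.6 and 12.5 TPM with vehicle. All 10 libraries at 0.2 mM were higher than all 10 at 4 mM, and within each glutamine level the 2 groups overlapped throughout.

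Cx3cl1 (ENSMUSG00000031778, chr8:94772009-94782427, plus strand, no overlapping gene) stayed close to the limit for testing, between 0.80 and 2.50 TPM, and was below 1 TPM in 1 library. It measured 1.10, 1.11, 1.10, 2.03 and 1.96 TPM with EIPA and 1.65, 1.02, 0.80, 1.98 and 1.17 TPM with vehicle at 0.2 mM. It measured 2.34, 2.50, 1.81, 1.49 and 1.36 TPM with IL-1a and 1.99, 1.40, 1.92, 1.93 and 1.23 TPM with vehicle at 4 mM. No group separated from another, and the SD within groups was 0.35 to 0.51 TPM. At such levels a value can rest on few reads.

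The EIPA comparison, against vehicle at 0.2 mM glutamine, asks how the transcripts respond when an inhibitor of macropinocytosis is added to glutamine-poor cells. Cxcl16 and Cxcl12 rose and the other two were not called. Across all genes 48.5% were called in this comparison, 27.4% as higher and 21.1% as lower, so 2 of 4 is close to that background. Of the calls 56.5% were higher, and 47% with mitochondrially encoded genes left out. Changes are limma estimates on log2(TPM + 1) ± SE, with 95% intervals and Benjamini-Hochberg adjusted p over the 12350 genes. Cxcl16 averaged 31.5 ± 3.9 TPM with EIPA and 8.32 ± 1.01 TPM with vehicle (SD, n = 5 each), a ratio of 3.79. Its log2 change was 1.80 ± 0.11 (1.56 to 2.04, limma adjusted p = 1.2e-10). Cxcl12 averaged 702 ± 81 TPM with EIPA and 557 ± 27 TPM with vehicle, a ratio of 1.26 and a log2 change of 0.33 ± 0.06 (0.20 to 0.46, limma adjusted p = 0.0002). Ccl25 averaged 27.8 ± 2.5 TPM with EIPA and 28.1 ± 3.9 TPM with vehicle, and the interval of its change ran between -0.22 and 0.21 (limma adjusted p = 0.97). For Cx3cl1 the interval was -0.24 to 0.41 (limma adjusted p = 0.69). Separate cultures are not stated for the replicates, and all p-values here therefore measure the spread between these samples alone, which may be technical.

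Of the 7 marker lists 6 had ranges that did not overlap between EIPA and vehicle at 0.2 mM glutamine, beside 48.5% of all genes called. The share of all genes with separate ranges was not counted, so 6 of 7 says nothing particular to these lists. The 8 leukocyte markers summed to 22.2 to 25.2 TPM with EIPA and 7.85 to 10.8 TPM with vehicle. Most of this sum came from Cd14 and Cd68. Adgre1 and Cd3e were listed at 0 in all 20 libraries, Ptprc and Itgam reached at most 0.01 TPM, and Csf1r at most 1.53 TPM. The 4 epithelial markers summed to 10.1 to 12.1 TPM with EIPA and 4.39 to 6.16 TPM with vehicle, with Epcam at most 0.36 TPM in any library. Krt18 averaged 10.3 TPM over the 20 libraries and was the only one of the 4 to average 1 TPM or more. Cdh1 reached at most 2.36 TPM. The fibroblast markers summed to 671 to 845 TPM with EIPA and 1351 to 1777 TPM with vehicle. Among them the collagen genes Col1a1, Col1a2 and Col3a1 had the largest means, 1827, 1169 and 461 TPM over the 20 libraries. The mesothelial markers summed to 179 to 281 TPM with EIPA and 299.6 to 429.8 TPM with vehicle. The 4 mural markers summed to 2.99 to 4.16 TPM with EIPA and 7.02 to 9.86 TPM with vehicle, and the 3 Schwann cell markers to 0.76 to 1.07 TPM with EIPA and 1.16 to 1.92 TPM with vehicle. Mcam, at 7.8 TPM over the 20 libraries, was the only mural marker to average 1 TPM or more. The endothelial ranges overlapped. In bulk RNA, fewer cells of a type and less RNA per cell cannot be told apart. Mitochondrially encoded mRNAs took 5.69 ± 0.63% of TPM with EIPA and 8.87 ± 0.27% with vehicle. With them left out, the log2 change was 1.76 for Cxcl16 and 0.28 for Cxcl12. Cxcl16 shares 552 bases with Zmynd15, which runs on the other strand, and the sources used here do not say whether counting used strand. Zmynd15 averaged 2.21 ± 0.97 TPM with EIPA and 0.83 ± 0.36 TPM with vehicle and was called higher (0.79 ± 0.19, limma adjusted p = 0.0021). The part of these marker lists in the Cxcl16 and Cxcl12 differences, and of the overlap in that of Cxcl16, was not tested.

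IL-1a was compared with vehicle at 4 mM glutamine. Cxcl16 was the only one of the 4 that was called, and the background was low, with 0.283% of genes called, 0.259% as higher and 0.0243% as lower. It averaged 8.56 ± 2.04 TPM with IL-1a and 5.37 ± 0.41 TPM with vehicle (SD, n = 5 each), a ratio of 1.59 and a log2 change of 0.56 ± 0.11 (0.33 to 0.80, limma adjusted p = 0.029). All 5 IL-1a libraries exceeded all vehicle libraries. The call was fragile. It was lost without IL-1a replicate 1 (log2 change 0.45, limma adjusted p = 0.055) or 2 (0.56, 0.072), and without vehicle replicate 1 (0.58, 0.060), 2 (0.53, 0.104), 3 (0.55, 0.106) or 4 (0.58, 0.065). It was also lost with no filter on low values (limma adjusted p = 0.068) and when only the 2 groups compared were fitted (limma adjusted p = 0.23). Without the 3 libraries that stood apart it held (0.53, limma adjusted p = 0.035). Cxcl12 averaged 1268 ± 64 TPM with IL-1a and 1374 ± 36 TPM with vehicle. All 5 IL-1a libraries were lower than all vehicle libraries, but its change of -0.12 ± 0.06 (-0.25 to 0.01) did not pass the test (limma adjusted p = 0.91, unadjusted p = 0.076). Ccl25 averaged 14.0 ± 2.3 TPM with IL-1a and 13.8 ± 1.4 TPM with vehicle. Cx3cl1 averaged 1.90 ± 0.51 TPM with IL-1a and 1.69 ± 0.35 TPM with vehicle. Their changes were 0.02 ± 0.10 and 0.10 ± 0.16, and neither was called. The ranges of all 7 marker lists overlapped between IL-1a and vehicle.

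The 0.2 mM and 4 mM glutamine levels were compared in the vehicle groups. Ccl25 and Cxcl16 rose at 0.2 mM, Cxcl12 fell and Cx3cl1 was not called. In this comparison 73.3% of all genes were called, 45.4% as higher and 27.9% as lower, so 3 of 4 is again no more than the background. The median gene was itself 0.14 higher at 0.2 mM on the log2 scale, and changes relative to it are given as well. Of the calls 61.9% were higher, and 50.3% with median-of-ratios scaling. Cxcl12 averaged 557 ± 27 TPM at 0.2 mM and 1374 ± 36 TPM at 4 mM (SD, n = 5 each), a ratio of 0.405, and fell by 1.30 ± 0.06 on the log2 scale, -1.44 relative to the median gene (limma adjusted p = 2.7e-13). Ccl25 averaged 28.1 ± 3.9 TPM at 0.2 mM and 13.8 ± 1.4 TPM at 4 mM, a ratio of 2.03. Its log2 change was 0.97 ± 0.10, or 0.83 relative to the median gene (limma adjusted p = 3.3e-08). Cxcl16 averaged 8.32 ± 1.01 TPM at 0.2 mM and 5.37 ± 0.41 TPM at 4 mM, with a log2 change of 0.55 ± 0.11, or 0.41 relative to the median gene (limma adjusted p = 0.00022). Cx3cl1 changed by -0.23 ± 0.16 (limma adjusted p = 0.20). The directions of the 3 called genes were the same under median-of-ratios scaling, quantile normalisation and with mitochondrially encoded genes left out.

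In vehicle 6 of the 7 marker lists had ranges that did not overlap between the glutamine levels, the mural list being the exception. Beside this, 73.3% of all genes were called. The share of all genes with separate ranges was not counted, so this number too says nothing particular to these lists. The fibroblast markers, of which the 3 collagen genes had the largest means, summed to 1351 to 1777 TPM at 0.2 mM and 5932 to 7840 TPM at 4 mM. The mesothelial markers summed to 299.6 to 429.8 TPM at 0.2 mM and 558.6 to 971.2 TPM at 4 mM. The leukocyte markers summed to 7.85 to 10.8 TPM at 0.2 mM and 15.2 to 19.9 TPM at 4 mM. The 5 endothelial markers summed to 6.34 to 10.4 TPM at 0.2 mM and 2.92 to 4.04 TPM at 4 mM, and 1 of them, Kdr, averaged above 1 TPM. Pecam1 reached at most 0.35 TPM and Cdh5 at most 0.07 TPM in any library. The epithelial markers summed to 4.39 to 6.16 TPM at 0.2 mM and 12.7 to 17.4 TPM at 4 mM, and the Schwann cell markers to 1.16 to 1.92 TPM at 0.2 mM and 0.71 to 0.98 TPM at 4 mM, with Sox10 at 0 in all 20 libraries. Among the epithelial markers only Krt18 averaged 1 TPM or more over the 20 libraries. The part of these lists in the differences of the 4 chemokines was not tested.

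The EIPA and IL-1a responses share no library, and their difference was tested directly. Cxcl16 rose more with EIPA than with IL-1a, by 1.24 ± 0.16 on the log2 scale (limma adjusted p = 1.1e-05), and Cxcl12 differed by 0.44 ± 0.09 (limma adjusted p = 0.00076). Of all genes 28.9% were called in this test, 16.3% as higher and 12.6% as lower, and 56.5% of the calls were higher (46.5% with mitochondrially encoded genes left out). The differences for Cx3cl1 (-0.01 ± 0.22, limma adjusted p = 0.97) and Ccl25 (-0.02 ± 0.14, limma adjusted p = 0.93) were not called. The 2 treatments were given at different glutamine levels, so treatment and glutamine cannot be told apart in this test.

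EIPA at 0.2 mM was also set against vehicle at 4 mM glutamine. Glutamine and EIPA differ together in this comparison, so their parts cannot be told apart. Here 76.7% of all genes were called, 48.7% as higher and 28% as lower, with 63.5% of the calls higher (50.3% with median-of-ratios scaling), and the median gene was 0.18 higher in the EIPA group. Cxcl16 averaged 31.5 ± 3.9 TPM with EIPA and 5.37 ± 0.41 TPM with 4 mM vehicle, a log2 change of 2.35, or 2.17 relative to the median gene (limma adjusted p = 1.7e-13). Cxcl12 averaged 702 ± 81 TPM with EIPA and 1374 ± 36 TPM with 4 mM vehicle (-0.97, or -1.15 relative to the median gene, limma adjusted p = 9.6e-12). Ccl25 was higher by 0.96, or 0.79 relative to the median gene (limma adjusted p = 2.8e-08), and Cx3cl1 was not called (limma adjusted p = 0.41).

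**Figure D2:**
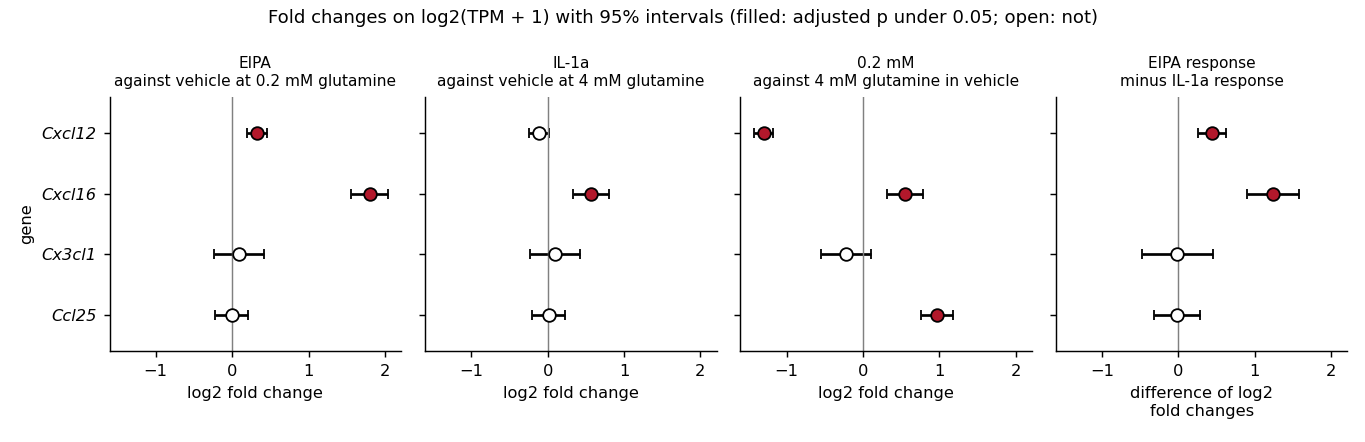
Log2 fold changes on log2(TPM + 1) (horizontal axes, not shifted to the median gene) of the 4 genes with 95% intervals, for 3 comparisons and, at the right, for the EIPA response minus the IL-1a response; filled points have an adjusted p under 0.05. The 4 rows differ from each other: Cxcl16 lies right of 0 in every panel, up to 1.80 for EIPA, Cxcl12 lies at -1.30 for glutamine, Ccl25 leaves 0 only for glutamine, and the Cx3cl1 intervals all include 0.

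The make-up of the chemokine transcripts was described over 36 ligand genes. Between 11 and 14 of them averaged at least 1 TPM in a group. Their summed level was 844 ± 80 TPM with EIPA, 638 ± 28 TPM with 0.2 mM vehicle, 1668 ± 86 TPM with IL-1a and 1513 ± 39 TPM with 4 mM vehicle. Cxcl12 made up 83.1% of it with EIPA, 87.2% with 0.2 mM vehicle, 76.2% with IL-1a and 90.8% with 4 mM vehicle. Cxcl16 made up 3.74 ± 0.45% with EIPA and 1.31 ± 0.17% with 0.2 mM vehicle, and was the third most abundant ligand with EIPA and the 6th with vehicle. Ccl25 was the second most abundant ligand in 0.2 mM vehicle, with 4.40 ± 0.65% of the sum, and made up 0.91 ± 0.08% in 4 mM vehicle. Within libraries Cxcl12 exceeded Cxcl16 by a median of 21.8-fold with EIPA, 66.6-fold with 0.2 mM vehicle, 157-fold with IL-1a and 252-fold with 4 mM vehicle.

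The other chemokines were read as a list. Of 33 other ligands 29 had 1 row each and 9 passed the filter. With EIPA limma called 4 as higher and none as lower, where 1 had an unadjusted p under 0.05 (median log2 change 0.20, against 0.02 over all genes), beside 48.5% of all genes called. They were Ccl2, which attracts monocytes, its neighbour Ccl7, and the neutrophil chemokines Cxcl1 and Cxcl5, and Ccl2 averaged 31.8 ± 12.8 TPM with EIPA and 3.0 ± 0.76 TPM with vehicle (2.97 ± 0.21, limma adjusted p = 4.5e-10). Cxcl5 had no vehicle library above 0.54 TPM and no EIPA library above 1.66 TPM. Under each of 3 other scalings Cxcl10 was also called, as lower. With IL-1a the same 4 genes were called higher (median 0.96 over the 9 genes, against 0.01, with 0.283% of all genes called), with Cxcl5 at 54.8 ± 30.3 TPM with IL-1a and 4.12 ± 0.80 TPM with vehicle (3.31 ± 0.22, limma adjusted p = 9.4e-09) and Ccl7 changed by 1.64 ± 0.23 (limma adjusted p = 0.00043). The IL-1a median was the value of Ccl20, which was not called (limma adjusted p = 0.059) and had no 4 mM vehicle library above 0.84 TPM. At 0.2 mM against 4 mM glutamine 6 fell and 1 rose (median -2.18 relative to the median gene), beside 73.3% of all genes called. Ccl2 averaged 3.0 ± 0.76 TPM at 0.2 mM and 48.1 ± 6.7 TPM at 4 mM, and Ccl7, Cxcl15, Cxcl1, Cxcl5 and Ccl9 also fell, while Ccl20 rose. No 0.2 mM vehicle library reached 1 TPM for Ccl9, Cxcl5 or Cxcl15, and no 4 mM vehicle library did for Ccl20. These 4 of the 7 called genes thus passed the filter on low values without the group where they were lower, which favours a call, and the count supports nothing about the list. Of the 4 chemokines described here only Cxcl12 fell in that comparison.

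**Figure D3:**
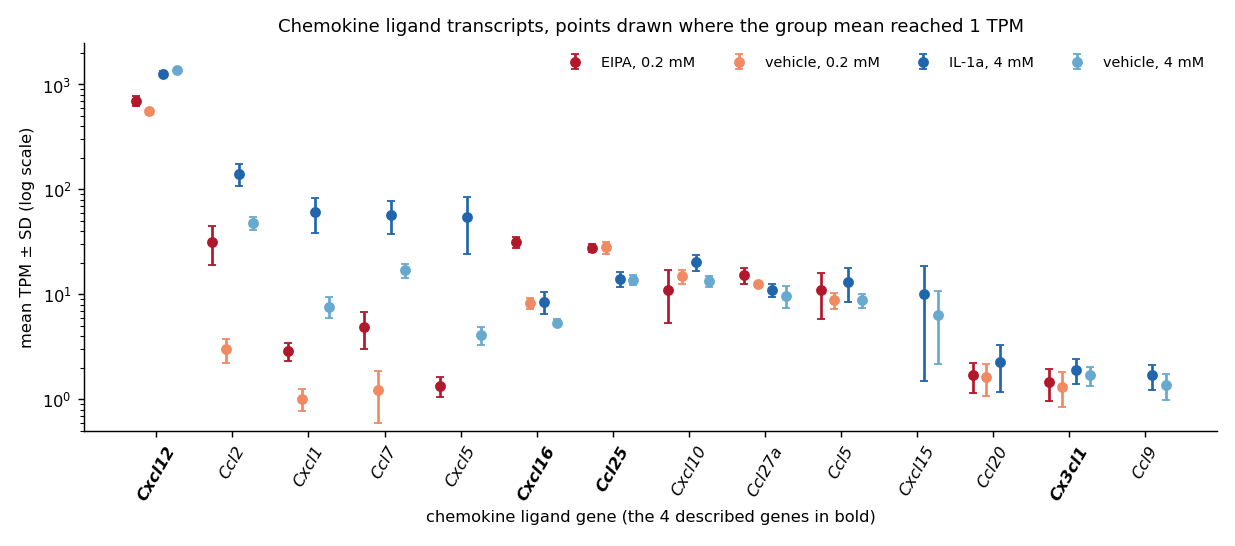
Mean TPM ± SD (vertical axis, log scale, n = 5) of the chemokine ligands that averaged at least 1 TPM in a group, with the 4 described genes in bold on the horizontal axis and colours for the groups; a missing point is a group mean under 1 TPM. Cxcl12 lies above all others in every group, and Ccl2, Cxcl1, Ccl7 and Cxcl5 are highest with IL-1a and lowest, or under 1 TPM, in 0.2 mM vehicle.

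Transcripts of the receptors of these chemokines were at or near 0, apart from Ackr3. Cxcr4, Cxcr6, Cx3cr1, Ccr9 and Ackr4 reached no group mean above 0.044 TPM and were not tested. Ackr3, the scavenging receptor of Cxcl12, was the 1 receptor of 6 that was tested. It averaged 0.15 ± 0.06 TPM with EIPA and 0.11 ± 0.04 TPM with vehicle at 0.2 mM, and 2.55 ± 1.15 TPM with IL-1a and 1.39 ± 0.48 TPM with vehicle at 4 mM. No 0.2 mM library exceeded 0.25 TPM, so it passed the filter through the 4 mM libraries alone, and its difference between glutamine levels is given as values without a test. It was called neither with EIPA nor with IL-1a.

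Genes that govern the shedding of Cxcl16 and Cx3cl1 were called about as often as genes in general. Of 13 genes 12 were tested, and Tspan10 was near 0. With EIPA 5 rose, 2 fell and 5 were not called (median 0.18, against 0.02 over all genes), beside 48.5% of all genes called. Adam17 averaged 38.0 TPM with EIPA and 30.1 TPM with vehicle (0.33 ± 0.06, limma adjusted p = 0.00027). Its partner Rhbdf1, an inactive rhomboid needed to carry Adam17 to the surface, changed by 0.53 ± 0.08, and Frmd8, which steadies that complex, by 0.44 ± 0.09. Tspan14 and Tspan15, tetraspanins that escort Adam10, also rose (0.33 and 0.42). The inhibitors fell: Timp3, which blocks Adam17, averaged 220 TPM with EIPA and 287 TPM with vehicle (-0.41 ± 0.10, limma adjusted p = 0.0018), and Timp1, which blocks Adam10, averaged 49.2 TPM with EIPA and 105 TPM with vehicle (-1.09 ± 0.12, limma adjusted p = 4e-07). Adam10 itself was at 69.1 TPM with EIPA and 73.3 TPM with vehicle and was not called, although it was called lower under each of 3 other scalings (-0.12 to -0.14). Rhbdf2, Tspan5, Tspan17 and Tspan33 were not called either, with changes of 0.19, 0.17, 0.05 and 0.00. With IL-1a limma called none of the 12, and 3 had an unadjusted p under 0.05, 1 higher and 2 lower.

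At 0.2 mM against 4 mM glutamine in vehicle, 6 of the 12 shedding genes fell, 2 rose and 4 were not called (median -0.36 relative to the median gene), beside 73.3% of all genes called. Adam10 averaged 73.3 TPM at 0.2 mM and 111 TPM at 4 mM, -0.73 relative to the median gene. Timp1 and Timp3 fell by 1.23 and 0.98 relative to the median gene, and Adam17, Tspan14 and Tspan15 fell by 0.29, 0.57 and 0.50. Tspan5 and Tspan33 rose by 0.23 and 0.55 relative to it, but Tspan33 had no 4 mM library above 0.65 TPM and passed the filter through the 0.2 mM libraries alone. Rhbdf1, Rhbdf2, Frmd8 and Tspan17 were not called, although median-of-ratios scaling also called Frmd8 and Tspan17 as lower. Quantile normalisation called Frmd8 as lower too.

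Proteases known to trim Cxcl12 or to cut Cx3cl1 were mostly metalloproteases here. Of 9 genes 5 were tested, and Mmp9 and the leukocyte proteases Elane, Ctsg and Ctss were at or near 0. With EIPA 2 rose, 1 fell and 2 were not called (median -0.10), beside 48.5% of all genes called. Mmp3 averaged 10.8 TPM with EIPA and 1.03 TPM with vehicle (2.51 ± 0.25, limma adjusted p = 6.1e-08), Mmp13 33.1 TPM with EIPA and 6.70 TPM with vehicle (2.16 ± 0.25, limma adjusted p = 5.3e-07), and Mmp2 fell by 0.43 ± 0.08. At 0.2 mM against 4 mM glutamine Mmp2, Mmp3, Mmp13 and the membrane-anchored Mmp14 fell (4 of 5, beside 73.3% of all genes called, 27.9% as lower; median -1.47 relative to the median gene), with Mmp14 at 116 TPM at 0.2 mM and 296 TPM at 4 mM. Dpp4, the exopeptidase that removes the first residues of Cxcl12, was near 1 TPM in every group and was not called in these comparisons. With IL-1a limma called none of the 5, and 1 had an unadjusted p under 0.05.

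Heparan sulphate, the sugar chain that holds Cxcl12 at the cell surface, is set by core proteins and modifying enzymes, of which 22 of 25 were tested. With EIPA 13 fell, 5 rose and 4 were not called (median -0.27, against 0.02 over all genes), beside 21.1% of all genes called as lower and 27.4% as higher, and 3 other scalings gave 13 fallen and 3 risen. Among genes whose larger group mean was 5 TPM or more, the falls were largest for Sulf2 (-1.01 ± 0.15), which removes sulphate groups from the chain, and for the glypicans Gpc4 (-0.99 ± 0.07) and Gpc6 (-0.81 ± 0.11). The rises were largest for the sulphotransferase Ndst2 (0.84 ± 0.08), the syndecan Sdc3 (0.67 ± 0.17) and Hs2st1 (0.24 ± 0.05). At 0.2 mM against 4 mM glutamine 14 fell, 4 rose and 4 were not called (median -0.50 relative to the median gene), beside 27.9% of all genes called as lower and 45.4% as higher. Median-of-ratios scaling gave 16 fallen and 3 risen, and quantile normalisation 15 and 3. With mitochondrially encoded genes left out the counts were again 14 and 4. The 3-O-sulphotransferase Hs3st1 averaged 8.05 TPM at 0.2 mM and 40.2 TPM at 4 mM, the syndecan Sdc1 33.9 TPM at 0.2 mM and 78.3 TPM at 4 mM, and Hs6st2 46.9 TPM at 0.2 mM and 85.7 TPM at 4 mM. Gpc4, Glce and Gpc2 rose there, by 0.86, 0.79 and 0.32 relative to the median gene. With IL-1a limma called none of the 22, and 3 had an unadjusted p under 0.05, 1 higher and 2 lower.

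**Figure D4:**
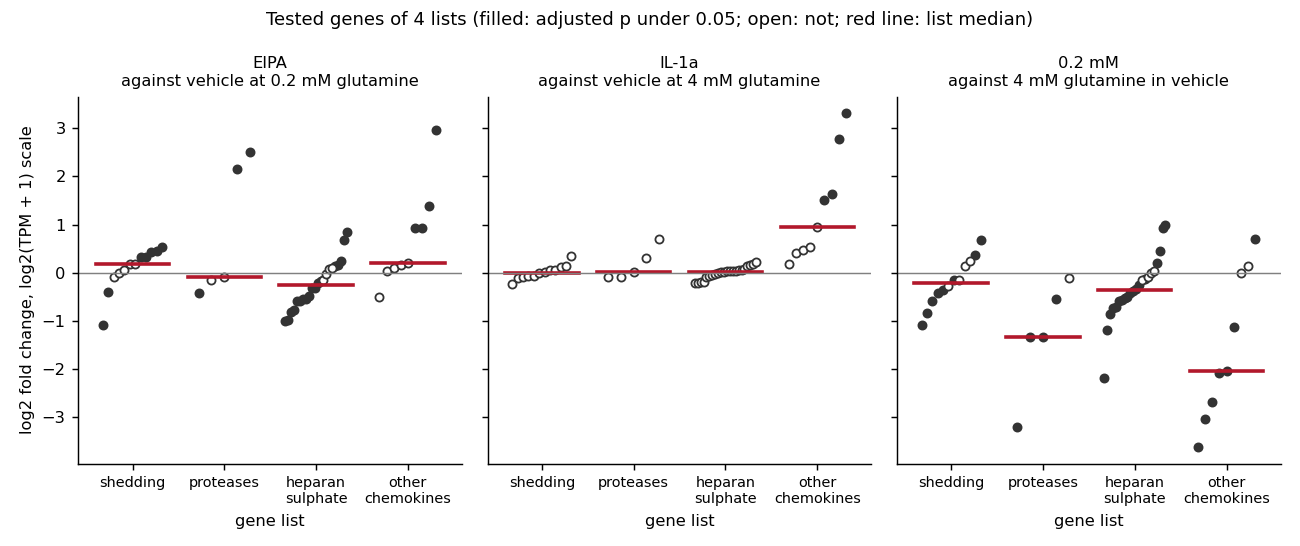
Log2 fold changes (vertical axis, log2(TPM + 1), not shifted to the median gene) of the tested genes in 4 lists (12 shedding genes, 5 proteases, 22 heparan sulphate genes and 9 other chemokines) in 3 comparisons; filled points have an adjusted p under 0.05 and red lines are list medians. With IL-1a the filled points are all other chemokines, whereas for EIPA and for glutamine filled points lie on both sides of 0 in most lists.

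The annotated gene structure of Ccl25 limits what its level can say. Of its 10 annotated transcripts 7 begin within 50 bases of the first start, 2 begin 24378 bases downstream and 1 elsewhere. Of the 4 coding transcripts, 2 begin at each start. The gene-level TPM does not tell the starts apart, nor coding from non-coding forms. The first start lies inside the first exon of Elavl1, which runs on the other strand and encodes an RNA-binding protein, and the genes share 204 bases. Elavl1 averaged 134 ± 9 TPM with EIPA and 150 ± 5 TPM with vehicle at 0.2 mM, and 126 ± 7 TPM with IL-1a and 123 ± 7 TPM with vehicle at 4 mM. It was called higher at 0.2 mM than at 4 mM in vehicle (0.15 relative to the median gene, limma adjusted p = 5.2e-05). Whether shared reads take part in the Ccl25 difference was not tested.

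**Figure D5:**
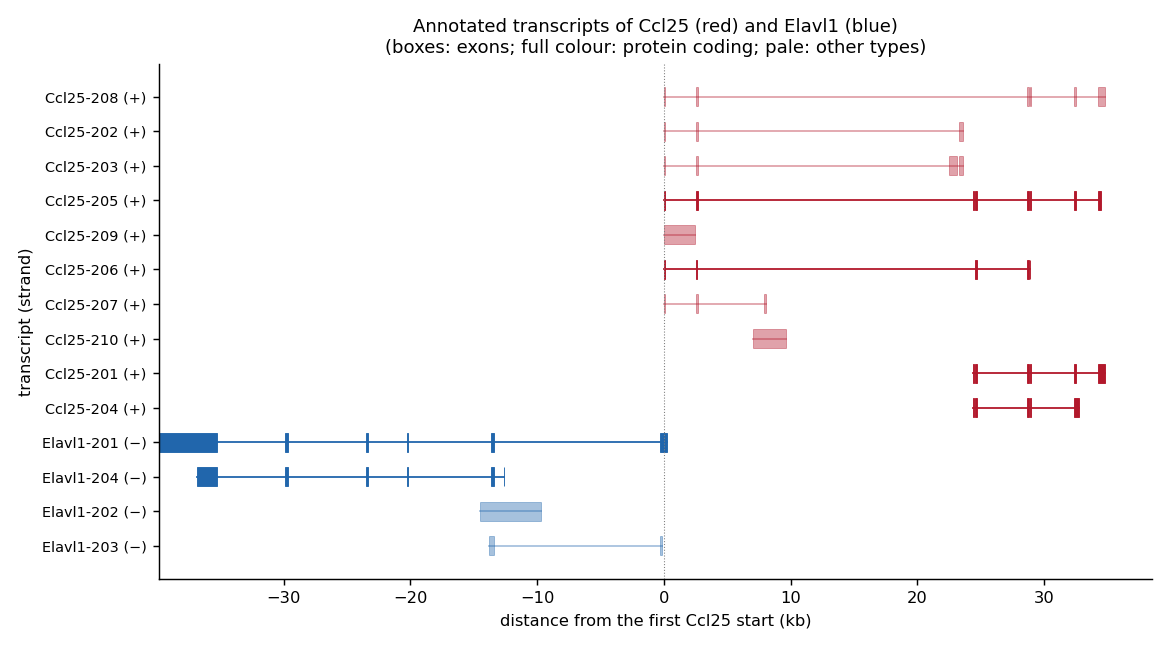
Annotated transcripts of Ccl25 (red) and Elavl1 (blue) in GENCODE M21, by distance from the first Ccl25 start in kb (horizontal axis); boxes are exons, full colour marks protein-coding transcripts, and the strand stands beside each name. Ccl25-201 and Ccl25-204 begin at the second start, and the first exon of Elavl1-201 reaches over the first start.

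RefSeq promoter windows of GRCm38.p6, from 250 bases before to 50 after a start, were at hand for 3 of the 4 genes, with 4 windows in all. The first Ccl25 start has 52 CpG dinucleotides and 74.0% G and C, and 0.576% of all 32817 promoters hold as many CpG. The window of the second start, at chr8:4349338-4349637, holds 1 CpG and a TATAAA match at position -16 from that start. The 60 bases before the second start (chr8:4349528-4349587, plus strand) are shown to set it apart from the CpG-rich first start. TATAAA, a motif chosen after the sequences were seen, is in capitals.
Ccl25 second start: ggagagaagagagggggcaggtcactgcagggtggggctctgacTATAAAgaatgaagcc
TATAAA stands on either strand in 13.6% of all promoters, and the Cx3cl1 window holds it as well, at position -6. Whether either match acts as a promoter element was not tested. The windows of Cxcl12 and Cx3cl1 had 20 and 19 CpG, against a median of 7. The NF-kB motif (8.46% of all promoters) and the AP-1 motif TGANTCA (7.81%) were in none of the 4 windows on either strand, and the core of the hypoxia response motif (43.8%) occurred once in each Ccl25 window. Of these motifs no match says only that the letters are missing from these windows.

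Genes with the most similar profiles were found by the root-mean-square difference between log2(TPM + 1) profiles over the 20 libraries, each centred on its own mean, among 11535 named genes. For Cxcl12 they were Calm3 (0.11), Pgm1 (0.12) and Rcn1 (0.12), against a root-mean-square of 0.56 for the Cxcl12 profile itself. For Cxcl16 they were Slc27a1 (0.26), Fbxo32 (0.29) and Gla (0.30), against 0.90. Slc27a1 averaged 24.9 TPM with EIPA, 7.19 TPM with 0.2 mM vehicle, 7.09 TPM with IL-1a and 5.16 TPM with 4 mM vehicle. For Ccl25 they were Akirin1 (0.12), Rhod (0.13) and Ndfip2 (0.14), against 0.50. For Cx3cl1 they were Cbx8 (0.16), Cfap36 (0.18) and Fgd1 (0.19), against 0.26, the smallest own value of the 4 genes. These likenesses are descriptions over libraries that share the 4 groups.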

How the data were processed

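The deposited values are TPM per gene from the authors, made with RSEM on mm10 per the submitters' processing notes. Of the aligner, versions, strand setting and annotation release nothing is stated in the sources used here. Per the labels' protocols, RNA was extracted with a PureLink kit, polyadenylated RNA was converted with a Watchmaker kit, and paired reads came from an Element AVITI. TPM keeps no trace of the depth, so it allows no counting interval, and it cannot show a change in total RNA.

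The 12350 of 32285 genes that reached 1 TPM in 5 or more of the 20 libraries were put on the log2(TPM + 1) scale. The tool was limma 3.58.1 (R 4.3.3), and 1 model held the 4 groups and an intensity trend. The Benjamini-Hochberg adjusted p covered all 12350 genes of a comparison, with calls under 0.05. "Rose" and "fell" are used of called genes. The added 1 TPM shrinks the fold changes of low genes. The limma script was tested on simulated data.

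Positions are from GENCODE M21, which held 32235 of the 32285 gene IDs, 31502 under the same symbol, and promoters from RefSeq. The 4 genes, the lists, the marker lists and the alternatives were chosen with earlier results of these data known. Named genes were all genes of the receptor, shedding and treatment lists, up to 3 rises and 3 falls per comparison of the other lists whose larger group mean was 5 TPM or more, and the 3 nearest profiles per gene. Ccl7, Cxcl1, Cxcl5, Cxcl10, Ccl9, Ccl20, Cxcl15, Mmp2 and Dpp4 were also named where the rule did not pick them, after their values were seen. Some genes of these lists are not reported here. No labels give batches.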

Additional observations from a re-analysis of the deposited data

How the results depend on the processing

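The calls and directions of Cxcl12, Cxcl16 and Ccl25 for EIPA, glutamine, the difference between responses and EIPA against 4 mM vehicle were the same under every alternative run, apart from sign changes of Ccl25 values near 0. The log2 change ran over 0.28 to 0.39 for Cxcl12 and 1.70 to 1.91 for Cxcl16 with EIPA. With IL-1a the Cxcl16 call was lost with no filter, with only the groups compared and with the replicate block, each at 0.5644, and leaving out 1 library gave 0.4472 to 0.6369. The IL-1a count of called genes was 35, and 19 with only the groups compared. Sign changes concerned uncalled values. The Cx3cl1 difference between responses was 0.0237 with quantile normalisation, 0.0313 without the 3 libraries that stood apart, and -0.1009 to 0.0810 with 1 library left out. With 1 library left out the EIPA change was -0.0018 to 0.1801 for Cx3cl1 and -0.0573 to 0.0613 for Ccl25, the IL-1a change of Ccl25 -0.0546 to 0.0763, and its difference between responses -0.0820 to 0.0489. The causes were not tested.

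Replicate numbers were not taken as pairs, although same-numbered libraries were often alike. Same-numbered deviations correlated at -0.281 to 0.601. The correlation was above 0.1 in 4 of 5 pairs for EIPA and 4 of 5 for IL-1a. It was above 0.1 in 2 of 5 for glutamine and 2 of 5 for EIPA against 4 mM vehicle. Many libraries, but not all, were closest to their own number. Whether the numbers mark a shared source was not tested. The replicate block gave 6305 called genes for EIPA, 39 for IL-1a, 9230 for glutamine, 4000 for the difference and 9650 for EIPA against 4 mM vehicle, and ended no other call on the 4 genes. Cx3cl1 has no value with a mean of at least 5 TPM, and the difference between responses none with only the groups compared. Depth is unknown in all libraries.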
